A study of Mus musculus with 23 samples.

Results

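Sites at which CTCF was crosslinked to RNA were counted in the genes of 10 molecular chaperones: 7 subunits of the cytosolic chaperonin (Tcp1, Cct2, Cct3, Cct4, Cct5, Cct7 and Cct8), the constitutive cytosolic HSP90 gene Hsp90ab1, the constitutive HSP70 gene Hspa8, and the mitochondrial HSP60 gene Hspd1. The members were chosen by name, with earlier results of these data known. A site belonged to a member when it lay inside that gene's GENCODE body on the gene's strand. The members are 10 of the 13608 genes that held at least 1 site. All 10 passed the minimum of 20 sites in both lists together in every comparison of UV lists and of WT with control lists. The series is iCLIP2, in which UV joins a protein to the RNA base it touches and the cDNA stops beside that base. The genes were read in mouse E14 embryonic stem cells (ESC) and in the same cells after 2 days of neural differentiation (NPC).

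Every group came from a CTCF-AID2 degron line that carries OsTir1(F74G) at Rosa26 and was treated with 1 µM 5-Ph-IAA for 24 h, so that endogenous CTCF was degraded, while 1 µg/mL doxycycline induced a Flag-Halo CTCF transgene at Tigre. The transgene was wild type (WT) or lacked the first zinc finger (ΔZF1), and each rescue line is 1 clone. WT and ΔZF1 cells of both types received 400 mJ/cm2 of UV at 254 nm, and CTCF was then captured from their nuclei on anti-Flag beads. The noXL controls were not irradiated and were made from the WT rescue line only, so ΔZF1 has no control of its own. The 23 libraries (4 in each group, 3 in NPC WT) were merged before site calling, and each group is therefore 1 list. No spread between replicates and no test can be given. Intervals below are 95% Wilson intervals and cover counting error only, the sequencing depth behind each list was not used here, and a list grows with depth. A scaled ratio divides out the number of sites each list holds inside genes, which for ESC was 429119 (WT), 217770 (ΔZF1) and 150821 (noXL) and for NPC was 230147 (WT), 153211 (ΔZF1) and 102002 (noXL). The cell labels were checked by sites in marker genes: 7 stem cell genes together held 1285 WT sites in ESC against 44 in NPC, and the progenitor gene Nes held 2 against 28. The other 5 neural progenitor markers, Sox1, Sox3, Pax6, Hes5 and Zic1, held 0 sites in both WT lists.

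Molecular chaperones bind proteins that are not yet folded. The chaperonin is a double ring of related subunits that encloses actin, tubulin and other newly made proteins, HSC70 (Hspa8) takes up exposed hydrophobic segments as chains leave the ribosome, and HSP90 receives clients such as kinases and steroid receptors from it. HSP60 (Hspd1) and its lid HSP10 (Hspe1) fold proteins in the mitochondrial matrix. These genes are highly transcribed in dividing cells, and their mRNAs are abundant.

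Sites were found in all 10 genes in all 6 lists, and in every gene the WT list held the most sites of its cell type. In ESC the 10 genes together had 962 WT sites, 355 ΔZF1 sites and 224 noXL sites, and in NPC they had 531, 230 and 111. That is 0.224%, 0.163% and 0.149% of the genic sites in ESC and 0.231%, 0.15% and 0.109% in NPC. The members therefore took a larger share of the WT list than of the ΔZF1 or noXL list in both cell types. In these bulk lists fewer cells of a type and less RNA per cell cannot be told apart.

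Among the chaperonin genes, Cct4 (the delta subunit) had the most sites in every list but NPC ΔZF1, where Cct8 and Cct2 had more. Cct4 had 160, 59 and 37 in ESC WT, ΔZF1 and noXL and 82, 28 and 20 in NPC. Tcp1 (alpha) had 121, 34 and 25 in ESC and 59, 24 and 10 in NPC. Cct8 (theta) had 117, 42 and 32, then 54, 32 and 10. These 3 genes were the highest of the 10 in ESC WT. Cct2 (beta) had 105, 38 and 21, then 64, 31 and 6. Cct7 (eta) had 101, 44 and 21, then 43, 19 and 17. Cct5 (epsilon) had 73, 22 and 13, then 44, 14 and 3. Cct5 and Cct2 had the lowest counts of the 10 in NPC noXL. Cct3 (gamma) had 60, 26 and 29, then 44, 25 and 14, and it alone had more sites in ESC noXL than in ESC ΔZF1. Of the other chaperones, Hspd1 had 92, 47 and 24, then 65, 30 and 14. Hsp90ab1 had 67, 17 and 7, then 36, 8 and 7. Hspa8 had 66, 26 and 15, then 40, 19 and 10.

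In GRCm38 (mm10), the + strand carries Tcp1 (chr17:12915701-12925067), Cct3 (chr3:88297116-88321767), Cct4 (chr11:22990519-23003780), Cct7 (chr6:85451514-85468475) and Hspa8 (chr9:40800984-40810087). The - strand carries Cct2 (chr10:117051001-117063814), Cct5 (chr15:31590800-31601804), Cct8 (chr16:87483326-87495873), Hsp90ab1 (chr17:45567775-45573271) and Hspd1 (chr1:55077835-55088243). The principal transcripts have between 9 exons (Hspa8) and 16 (Cct2). On the opposite strand the 10 gene bodies had 16 WT, 9 ΔZF1 and 6 noXL sites from ESC and 9, 4 and 1 from NPC, and 10 of the 16 lay in the body of Tcp1, which overlaps other genes on that strand.

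**Figure D1:**
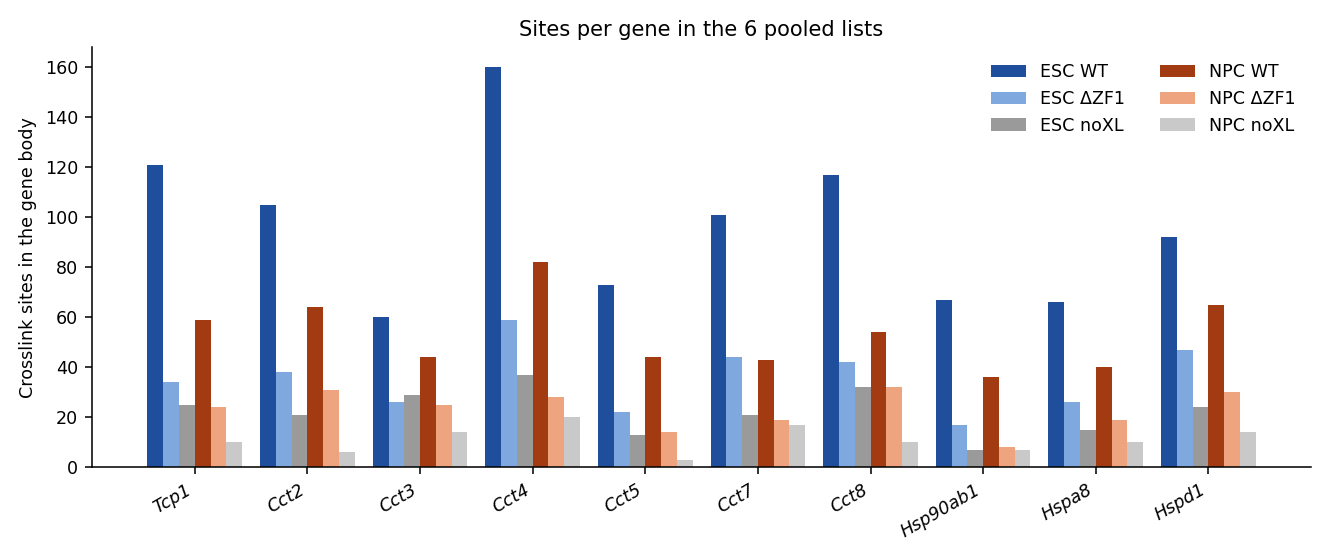
Crosslink sites inside each gene body on its strand (y axis, number of sites) for the 10 genes (x axis), 1 bar for each of the 6 pooled lists. The WT bar is the highest of its cell type in every gene, from 60 (Cct3) to 160 (Cct4) in ESC and from 36 (Hsp90ab1) to 82 (Cct4) in NPC.

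Per kilobase of exon all 10 members were above the median gene in the WT lists. In ESC WT, exonic sites per kilobase of exon were 21.1 in Cct2, 20.6 in Cct5, 20.4 in Hspd1 and 20.1 in Cct8, against a median of 7.18 over the 7808 protein-coding genes with at least 5 sites in that list. The values were 17.9 in Cct4, 17.1 in Tcp1 and 16.7 in Hsp90ab1. Hspa8 (11.6), Cct7 (10.3) and Cct3 (9.26) were nearest to the median. Exon length here is the union over all annotated transcripts, which is 6370 nt for Cct3 and 6778 nt for Cct7. Their principal mRNAs have 1977 and 2441 nt, so the order of the members depends on the annotation. In the coding sequence of the principal mRNA, ESC WT sites per kilobase were 25.1 in Cct3, 23.1 in Cct2, 19.6 in Cct7 and 10.8 in Hspa8. Over the same 7808 genes, all 10 members were also above the median in ESC ΔZF1, although Cct7 was level with it at 3.54. In ESC noXL 8 members were above the median, in NPC ΔZF1 8 and in NPC noXL 7. In ESC noXL, Cct2 was above 90.4% of these genes and Hspd1 above 89.4%, against 96.8% and 96.3% in ESC WT, while Cct7 was above 29.5% and Hsp90ab1 above 37.1%. The exact sequence of an mRNA can occur again elsewhere in the genome and reads there may be dropped or shared. Of the 31-nt words of the principal mRNA, 80.2% occurred elsewhere for Hspa8, 73.5% for Hspd1, 23.5% for Hsp90ab1 and 18.6% for Tcp1, but 0.104% for Cct2 and 0% for Cct5 and Cct8. The counts of Hspa8 and Hspd1 are therefore uncertain. In Hspd1 the copied stretches carried 16.5 WT sites per kilobase and the others 36.3 in ESC, and in NPC the copied stretches again carried fewer, 14.2 against 18.96. In Hspa8 the values were 10.5 and 14.96, then 6.86 and 8.55. The order was not the same in every gene: copied stretches had more sites per kilobase in Cct4 in ESC WT (26.3 and 23.5, on 4 copied sites), in Cct3 in NPC WT (27.8 and 14.5, on 8) and, by a small margin, in Hsp90ab1 in NPC WT (11.99 and 11.54).

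The sequences around the best recurrent coding site of each gene are shown because they carry the sequence feature described next. Each is the 21 nt around the ESC WT site of highest score among coding uridines with a site of each of the other 3 UV lists within 5 nt, read on the gene's strand from the mm10 genome. Tcp1 had no such site, and its highest coding uridine is shown. The capital is the crosslinked base, and t stands for U.
Tcp1, exon 1, chr17:12916568-12916588, + strand: ggagggtcctTtgtccgtgtt
Cct2, exon 3, chr10:117062823-117062843, - strand: aagagcacttTgggaccgaag
Cct3, exon 4, chr3:88300926-88300946, + strand: tagatgctttTggacccaatg
Cct4, exon 2, chr11:22993285-22993305, + strand: gaacaagcctTggacctaaag
Cct5, exon 10, chr15:31592293-31592313, - strand: gattgactgtTtgcacaaggg
Cct7, exon 10, chr6:85467131-85467151, + strand: ccatcatgatTgtgaggaggg
Cct8, exon 2, chr16:87494413-87494433, - strand: tttcagcattTctcgggatta
Hsp90ab1, exon 6, chr17:45570556-45570576, - strand: ggtgatttagTtggagaagga
Hspa8, exon 4, chr9:40802871-40802891, + strand: gcttacggctTagataagaag
Hspd1, exon 8, chr1:55081078-55081098, - strand: atatggctatTgctactggtg
In 9 of these 10 windows, all but that of Hsp90ab1, the base before the crosslinked uridine is also a uridine. The scores at these positions in ESC WT ran from 22.5 (Cct3) to 78.9 (Hsp90ab1), where the score is the peak caller's log-likelihood measure and the list's median was 2.53. At the Cct3 position the ESC scores were 22.5 with WT and 0.278 with ΔZF1, and the NPC scores were 29.4 and 31.7. Neither noXL list held a site at that base, but NPC noXL held one within 5 nt. At the Hspd1 position the scores were 25.9 and 13.6, then 91.1 and 60.0, and no noXL site lay within 5 nt. A noXL site lay within 5 nt of the Cct8 position in both cell types and of the Hspa8 position in ESC.

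The preceding uridine was a property of the coding sites as a whole. Read in the mRNA, 76.0% of the 333 coding uridine sites of the members in ESC WT followed a uridine (interval 71.1 to 80.3), whereas 23.3% of all 4066 coding uridines of the 10 mRNAs do. With ΔZF1 it was 72.9% of 85 in ESC and 85.1% of 47 in NPC, and with WT in NPC 79.4% of 233. In the controls it was 28.6% of 14 in ESC noXL (11.7 to 54.6) and 42.9% of 7 in NPC noXL (15.8 to 75.0). For all coding sites of the series the preceding base was read in the genome, which differs at exon starts. Read that way, the WT shares were 60.2% over all coding uridine sites and 75.7% over the members' (70.8 to 80.0) in ESC, and 64.8% and 79.0% (73.3 to 83.7) in NPC. Of the ESC WT coding sites 25.5% were followed by U and 40.8% by G, against 23.4% and 39.0% of all coding uridines, which lie within their intervals. In NPC ΔZF1, 55.3% of 47 were followed by G (41.2 to 68.6), above that share.

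Counted the other way, 26.7% of the 948 coding uridines that follow a uridine carried a site in ESC WT (24.0 to 29.6), and 2.57% of the 3118 that follow another base did (2.07 to 3.18). In NPC WT the values were 19.5% and 1.54%. In ESC ΔZF1 they were 6.54% and 0.738%, and in NPC ΔZF1 4.22% and 0.225%. The 4 UV lists thus all favoured the second uridine of a pair. In ESC noXL the values were 0.422% and 0.321% and in NPC noXL 0.316% and 0.128%, in both with intervals that overlap. In the WT lists the sites lay often at the third codon position, 53.2% of them in ESC and 50.2% in NPC, against 40.8% of all coding uridines. With ΔZF1 the shares were 41.2% in ESC (31.3 to 51.8) and 46.8% in NPC (33.3 to 60.8), with intervals that hold the share of all coding uridines. Of the coding uridines that follow a uridine, 54.6% are at that position, within the interval of ESC WT (47.8 to 58.4).

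The uridine share of all member sites separated UV from control lists. In ESC it was 70.7% for WT (67.7 to 73.5), 55.8% for ΔZF1 (50.6 to 60.9) and 29.9% for noXL (24.3 to 36.2). In NPC it was 76.8% (73.1 to 80.2), 65.2% (58.9 to 71.1) and 22.5% (15.7 to 31.1). The ΔZF1 shares lay between WT and noXL in both cell types, with no overlap of the intervals. Over all genic sites the shares were 60.6%, 49.2% and 28.3% in ESC and 64.6%, 59.0% and 27.9% in NPC, so the members were above the series in the WT lists by more than counting error. In coding exons the members reached 83.5% (79.5 to 86.8) in ESC WT and 87.6% (83.1 to 91.0) in NPC WT, against 60.0% and 66.3% of all coding sites. With ΔZF1 their coding sites were at 79.4% (70.8 to 86.0) in ESC and 81.0% (69.1 to 89.1) in NPC. These intervals overlap those of WT, and all coding ΔZF1 sites were at 47.8% and 56.8%. The coding sequences themselves are 23.6% uridine, and without UV the coding sites of the members were at 23.7% (14.7 to 36.0) in ESC and 24.1% (12.2 to 42.1) in NPC. In their 5′ UTRs the WT share was 44.4% (33.5 to 55.9) in ESC and 35.7% (20.7 to 54.2) in NPC, against 35.3% and 41.3% of all such sites. In introns it was 62.6% (57.4 to 67.5) and 68.4% (60.7 to 75.1), against 62.4% and 64.3%. The intervals for 5′ UTRs and introns hold the shares of the series.

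**Figure D2:**
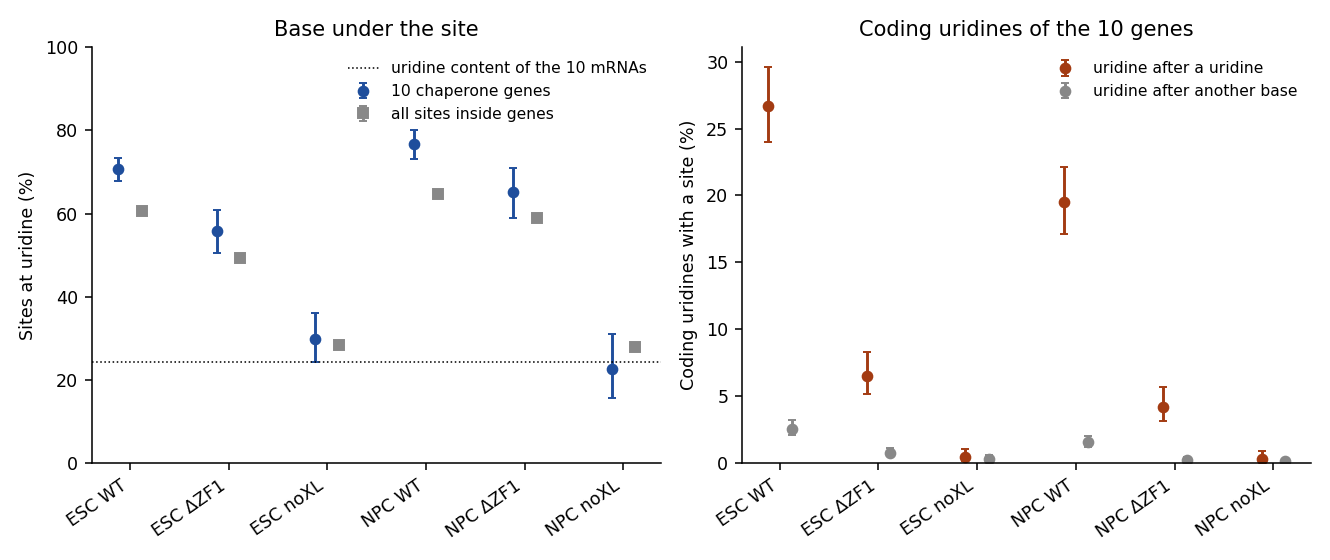
Left, percent of sites at uridine (y axis) in each list (x axis) for the 10 genes and for all sites inside genes, with the uridine content of the mRNAs as a dotted line at 24.4%; right, percent of the coding uridines of the 10 genes that carry a site, split by the base before. Bars are 95% Wilson intervals. With WT the members reach 70.7% (ESC) and 76.8% (NPC), and uridines after a uridine reach 26.7% in ESC WT against 2.57% for the others.

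The excess of UV over control sites was concentrated at uridine. At uridine the members had 680 sites in ESC WT and 67 in ESC noXL, a 10.1-fold ratio (7.90 to 13.0), where all genic uridine sites had 6.10-fold. At other bases they had 282 and 157, a 1.80-fold ratio. In NPC the ratio was 16.3-fold at uridine (408 against 25 sites, 10.9 to 24.4; all genic sites 5.22-fold) and 1.43-fold at other bases. For ΔZF1 against noXL the other bases gave ratios of 1.00 in ESC (157 against 157 sites) and 0.930 in NPC (0.687 to 1.26), where all genic sites gave 1.02 and 0.854. At uridine they gave 2.96 in ESC (2.24 to 3.90), an interval that holds the 2.51 of all genic sites, and 6 in NPC (3.94 to 9.13), against 3.17. All ratios by base are of raw counts, not scaled to the lists, whose size grows with depth. In raw counts the ΔZF1 lists thus differed from the noXL lists at uridine, and at other bases a difference was not detectable.

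The comparison of WT with noXL asks how far the sites of a gene depended on UV. Scaled to the lists, the members' sum was higher in WT by 0.59 on the log2 scale in ESC (0.38 to 0.80) and by 1.07 in NPC (0.79 to 1.38). The ratio was above 0 for 9 of 10 genes in ESC, where 51.5% of the 6208 genes compared were above 0, and for 10 of 10 in NPC, where 52% of 4765 were. The members' median was 0.64 in ESC and 1.00 in NPC, beside medians of 0.02 and 0.03 over all genes compared. At or above 1 were 1 member in ESC (8.12% of all genes) and 5 in NPC (10.5%). The gene past the limit in ESC was Hsp90ab1, at 1.58 (0.65 to 2.85). In NPC they were Cct5 at 2.32 (1.10 to 4.30, on only 3 noXL sites), Cct2 at 2.04, Tcp1 at 1.27, Cct8 at 1.15 and Hsp90ab1 at 1.04. The interval lay above 0 for 6 members in ESC, where 9.5% of all genes compared had such an interval, and for 7 in NPC, where 10.2% had. It held 0 for the other 4 and 3. Cct3 was the 1 member below 0, at -0.48 in ESC (-1.09 to 0.17), and in NPC it stood at 0.41 (-0.38 to 1.33), where Cct7 was lowest at 0.12 (-0.63 to 0.96). Its exons held 59 WT and 18 noXL sites in ESC, and its introns 1 and 11.

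The comparison of ΔZF1 with WT sets the site counts of the rescue lines side by side. RNA levels in these lines were not used, and their part in the ratios was not tested. All 10 genes had fewer sites in ΔZF1 than in WT in both cell types, and the list totals were also smaller, by 1.97-fold in ESC and 1.50-fold in NPC. Scaled for that, the sum of the members fell by 0.46 on the log2 scale in ESC (interval -0.64 to -0.28) and by 0.62 in NPC (-0.84 to -0.40). The scaled ratio was below 0 for 9 of 10 members in ESC, where 47.7% of 6518 genes were below 0, and for 10 of 10 in NPC, where 52.5% of 5274 were. The members' median was -0.45 in ESC and -0.53 in NPC, beside 0.04 and -0.04 over all genes compared. The interval lay below 0 for 4 members in each cell type, Tcp1, Cct4, Cct5 and Hsp90ab1 in both, where it did for 9.83% of all genes compared in ESC and 10.6% in NPC.

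Hsp90ab1 had the largest deficit in both cell types, with scaled ratios of -0.94 in ESC (-1.76 to -0.24) and -1.45 in NPC (-2.66 to -0.50). It was the 1 member at or below -1 in NPC, where 7.36% of all genes were, and no member was in ESC, where 5.45% were. Tcp1 stood at -0.82 (-1.40 to -0.31) in ESC and -0.68 in NPC. Cct5 stood at -0.71 and -0.998. The intervals of these 3 genes overlap widely, so their order is not settled by the counts. Cct4 stood at -0.45 in ESC and -0.93 in NPC, but it lies on chromosome 11, where the median over all genes compared was -0.47 and -0.61; the part of the chromosome in the Cct4 ratio was not tested. The medians of the other members' chromosomes lay between -0.02 and 0.15 in ESC and between -0.11 and 0.12 in NPC. Without chromosome 11 the members' sum was -0.52 in ESC and -0.63 in NPC. Cct3 (-0.20 in both), Cct7 (-0.20 and -0.55) and Hspa8 (-0.33 and -0.45) had intervals that hold 0. Hspd1 was at 0.02 in ESC (-0.49 to 0.51) and -0.50 in NPC (-1.15 to 0.09).

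**Figure D3:**
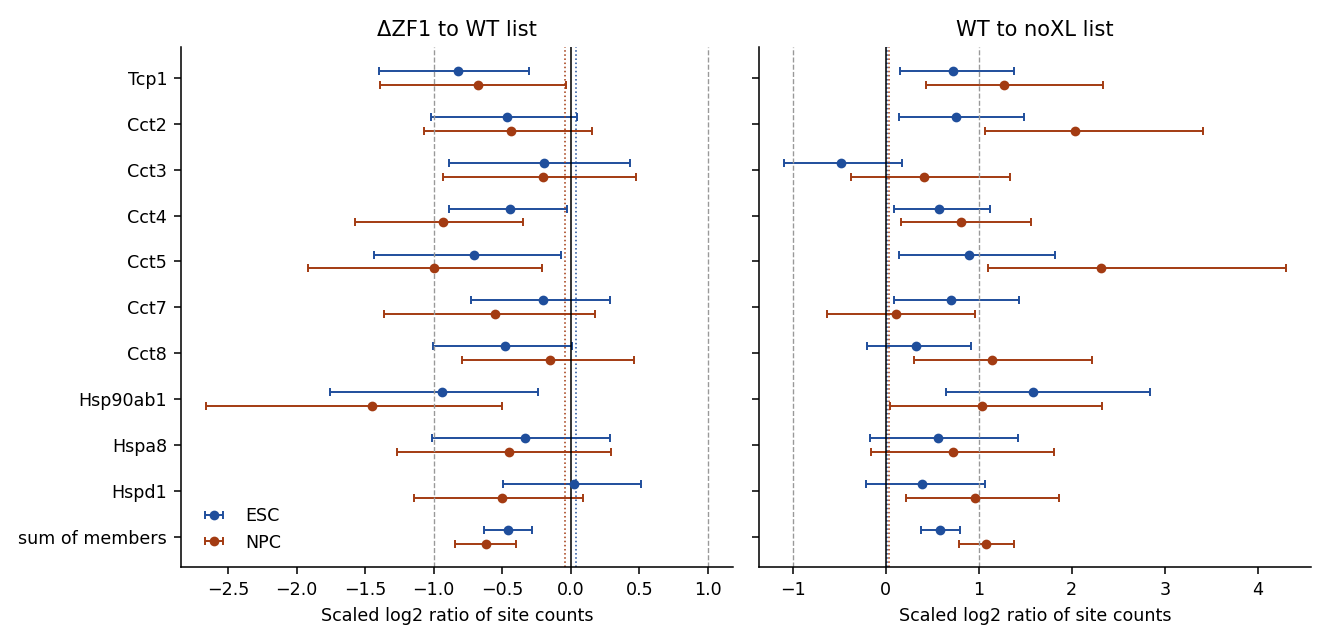
Scaled log2 ratio of site counts (x axis) for each gene and for their sum (y axis), ΔZF1 to WT on the left and WT to noXL on the right, ESC in blue and NPC in red. Bars are 95% counting intervals, dotted lines the medians over all genes compared and dashed lines the limits of -1 and 1. The sums lie at -0.46 and -0.62 on the left and at 0.59 and 1.07 on the right.

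The WT lists serve both comparisons, so the values of ΔZF1 against noXL are given beside them. That sum was 0.13 in ESC (-0.11 to 0.38) and 0.46 in NPC (0.14 to 0.79). In ESC the ΔZF1 list could not be told from the control in its share of member sites, and in NPC it lay above it. At or above 1 was 1 of the 8 members that reached the minimum in NPC, Cct2 at 1.61, where 7.19% of all genes were.

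The deficit of ΔZF1 was larger in exons than over the whole gene. For exonic sites scaled to the exonic genic sites, all 10 members were below 0 in both cell types, where 50.3% of 6253 genes were in ESC and 46.4% of 4770 in NPC. The members' medians were -0.77 in ESC and -0.72 in NPC, beside -0.0048 and 0.04 over all genes compared, and their sums -0.74 (-0.98 to -0.51) and -0.78 (-1.08 to -0.49). For all genes a site counted as exonic in an exon of any gene on its strand, which puts the members' NPC median at -0.70 and leaves the ESC one at -0.77. For intronic sites the sums were -0.02 in ESC (-0.30 to 0.24) and -0.47 in NPC (-0.83 to -0.13). In ESC the intervals for exons and introns do not overlap, and in NPC they do. In ESC, exons held 64.1% of the WT sites of the members, 53.8% of the ΔZF1 sites and 51.8% of the noXL sites, and in NPC 70.2%, 51.7% and 59.5%. Coding exons alone held 41.5% (38.4 to 44.6), 30.1% (25.6 to 35.1) and 26.3% in ESC and 50.1% (45.9 to 54.3), 25.2% (20.0 to 31.2) and 26.1% in NPC. Over all genic sites in ESC the coding share was 36.3% in WT and 38.0% in ΔZF1, so the members' fall was not seen in the list as a whole. In NPC it was 43.3% and 34.4%. In Hspd1, 54 of 92 sites were exonic in ESC WT and 15 of 47 in ESC ΔZF1, so that its ratio near 0 over the whole gene came with a deficit in exons.

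Within the mRNAs most sites lay in the coding sequence. The coding sequence makes up 75.4% of the 10 principal mRNAs and held 82.4% of their ESC WT sites, 23.0 per kilobase. It held 78.1% in ESC ΔZF1 and 78.4% in ESC noXL, and 86.1%, 81.4% and 74.4% in NPC WT, ΔZF1 and noXL. The 5′ UTRs held 24.5 sites per kilobase and the 3′ UTRs 9.20. In NPC WT the values were 15.4 per kilobase in coding sequence, 10.2 in 5′ UTRs and 6.04 in 3′ UTRs. The 3′ UTRs make up 15.2% of the members' mRNA and held 6.64% of its ESC WT sites. Of all sites, introns included, 3.85% of the members' and 16.4% of those in all genes lay in 3′ UTRs in ESC WT. With each coding sequence split into 3 equal parts, the first held 40.3% of the coding sites in ESC WT (35.6 to 45.2), the middle 31.7% and the last 28.0%. Of the 345 intronic ESC WT sites, 329 lay in introns of the principal transcripts, and the other 16, all in Hspa8, lay past the end of its principal transcript in introns of longer ones. Of the 329, 2.74% (1.45 to 5.12) lay within 50 nt before a 3′ splice site and 0.608% within 50 nt after a 5′ splice site. The first share was 8.41% (4.49 to 15.2) of 107 such sites in ESC noXL.

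**Figure D4:**
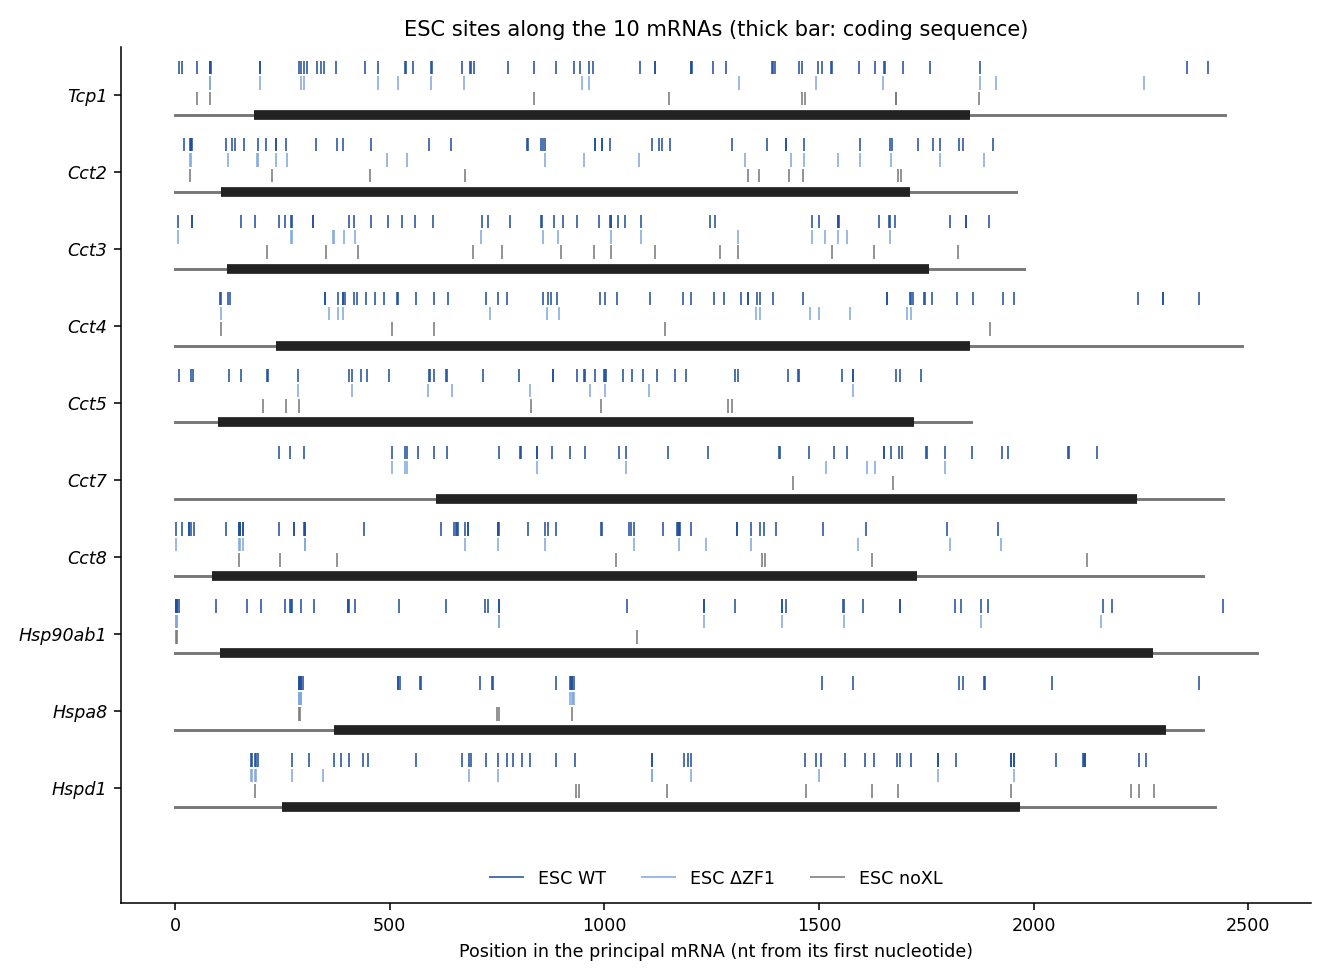
ESC sites along the principal mRNA of each gene, with the position in nt from the first nucleotide on the x axis and 1 gene per row; ticks are single sites, in 3 tracks for WT, ΔZF1 and noXL, and the thick bar is the coding sequence. WT sites are spread over the coding sequences at 23.0 per kilobase and are sparser in the 3′ UTRs, at 9.20 per kilobase.

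The highest scores of Hspa8 lay outside the coding sequence, just before snoRNAs, and sites there were also listed without UV. Hspa8 hosts the snoRNA genes Snord14c, Snord14d and Snord14e, and Tcp1 hosts Gm26130 and Snora20. The windows below hold the 10 nt before and the first 10 nt of each snoRNA, with the last 2 bases before it in capitals, to show where the sites fall.
Gm26130 in Tcp1, chr17:12919575-12919594, + strand: tccgtgtaCTtttcccattt
Snora20 in Tcp1, chr17:12922780-12922799, + strand: aaaataatTCtttcccatta
Snord14c in Hspa8, chr9:40803573-40803592, + strand: cctgtaagATtcgctgtgat
Snord14d in Hspa8, chr9:40803985-40804004, + strand: gggaagttCCtcgctgtgat
Snord14e in Hspa8, chr9:40804738-40804757, + strand: ctgagaggGGtcacaatgat
All 5 had a site at the last base before the snoRNA in all 6 lists, and the base differs among them. The highest score 1 to 3 nt before Snord14e was 708 in all 3 ESC lists and in NPC noXL, and with UV in NPC it was 586 (WT) and 631 (ΔZF1). The value of 708 is the highest that the files hold. Before Snora20 the ESC values were 92.4 (WT), 100 (ΔZF1) and 53.0 (noXL) and the NPC values 89.3, 36.5 and 12.1. The highest ESC WT score of Tcp1 was not at a snoRNA but at nt 82 of its mRNA, in the 5′ UTR, with 146 (WT), 63.5 (ΔZF1) and 14.9 (noXL). In the 5′ UTR of Hspa8, nt 288, 289, 291 and 292 scored 299, 332, 303 and 335 in ESC WT, and of these 4 positions nt 289 and 291 held a site in ESC noXL, with 73.6 and 80.9. Sites 1 to 3 nt before a snoRNA made up 7 of the 66 Hspa8 sites in ESC WT but 6 of 15 in ESC noXL and 3 of 10 in NPC noXL. Over the series, 43.7% of the 350 snoRNAs inside protein-coding genes had such a site in ESC WT and 39.4% in ESC noXL.

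**Figure D5:**
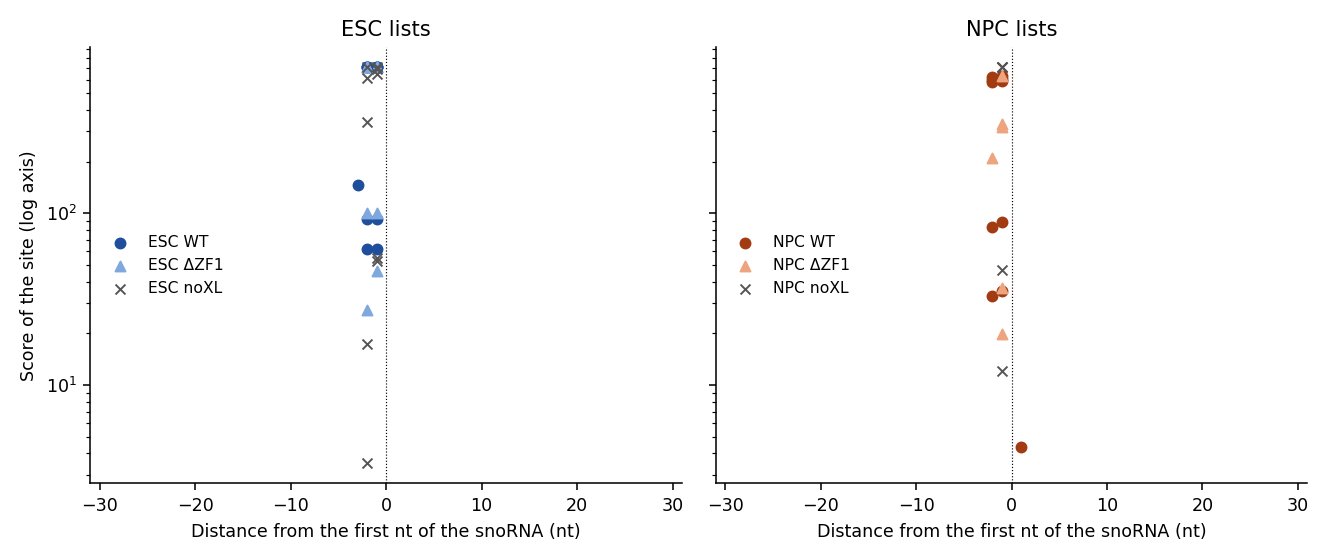
Score of each site (y axis, log scale) against its distance in nt from the first nucleotide of the 5 snoRNAs hosted by Hspa8 and Tcp1 (x axis, window of 30 nt each side), ESC on the left and NPC on the right; circles are WT, triangles ΔZF1 and crosses noXL. Sites of all 6 lists stand 1 to 3 nt before the snoRNA, and the 1 site inside the window after it is in NPC WT.

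Within its mRNA, Hsp90ab1 had its highest ESC WT scores at the very start. The first 20 nt of the principal transcript, with its first 5 nt in capitals, are as follows.
Hsp90ab1 mRNA start, chr17:45573252-45573271, - strand: GAGCTctcttgagtcacccc
The first 5 nt all held a site in ESC WT, with scores from 75.2 to 401, and the only other site of that list in the stretch was at nt 10, with a score of 4.04. At nt 4, a C, the ESC scores were 401 (WT), 429 (ΔZF1) and 326 (noXL) and the NPC scores 412, 148 and 212. This base had a site in all 6 lists and the highest score of the gene in each. Without UV, nt 1, 2 and 5 held no site in either cell type, and nt 3 held one in ESC only, with a score of 53.0 against 400 with WT. Cct4 and Hspd1 had their highest recurrent sites at a G of the 5′ UTR, shown here with that G in capitals.
Cct4 5′ UTR, chr11:22990614-22990634, + strand: ctcggcttccGccttctctcc
Hspd1 5′ UTR, chr1:55087828-55087848, - strand: ccagagctggGtccctcactc
The Cct4 base scored 108 (WT), 54.8 (ΔZF1) and 121 (noXL) in ESC and 119, 0.603 and 37.0 in NPC. The Hspd1 base scored 152, 135 and 142 in ESC and, with UV, 192 (WT) and 78.9 (ΔZF1) in NPC, where the noXL list held no site at it. In ESC these Cct4 and Hspd1 bases scored without UV at levels near those with WT.

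Recurrence has to be read with this in view. Of the 962 ESC WT sites of the members, 59 (6.13%; 4.78 to 7.83) had a site of each of the other 3 UV lists within 5 nt, against 1.99% of all genic sites. Of these 59, 39 also had a noXL site within 5 nt, which is 66.1% (53.4 to 76.9), and of all 8546 such genic sites 52.9% did, just below the members' interval. Hspa8 gave 14 of them, 11 of which were near a noXL site, and Cct3 gave 9, all near one. The 3 of Cct2 and the 3 of Cct5 were near none. By pairs of lists, 41.7% of the member sites of ESC ΔZF1 lay within 5 nt of an ESC WT site (36.7 to 46.9; all genic sites 24.2%), and 25.7% of those of NPC ΔZF1 near an NPC WT site (20.4 to 31.7; 13.1%). Between cell types, 55.7% of the members' WT sites in NPC had a neighbour in ESC (51.5 to 59.9; 28.2%). Genes with more sites per base share more positions by density alone, and the part of density in these shares was not tested.

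The member sites of the WT lists scored above the other sites of their lists. The median member site stood at the 70.5th percentile of ESC WT genic scores and at the 76.0th of NPC WT, at the 63.2nd and 51.7th of the ΔZF1 lists, and at the 55.1st and 53.1st of the noXL lists. Hsp90ab1 was the highest in NPC WT, with its median site at the 97.3rd percentile and 26 of its 36 sites in the top 10% of scores.

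Between cell types the WT sum hardly moved, at 0.04 on the scaled log2 scale for NPC to ESC (-0.11 to 0.19), and no member reached 1 or -1, where 11.5% and 10.4% of 6730 genes did. Single members ran from -0.31 (Cct7) to 0.46 (Cct3), all with intervals that hold 0. The noXL sum was lower in NPC, at -0.44 (-0.78 to -0.12), with 2 of 8 members at or below -1, where 12.3% of all genes were. The larger WT to noXL ratio of the members in NPC thus went with a smaller control share, and these 2 comparisons use the same lists.

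Other chaperone genes were taken from a list of 77, of which 63 had enough sites for ΔZF1 to WT in ESC and 51 in NPC. Below 0 were 36 of 63 and 33 of 51, with medians of -0.09 and -0.28, nearer to all genes than the members were. At or above 1 were 2 in each cell type, where 6.84% of all genes were in ESC and 5.76% in NPC, and at or below -1 were 2 in ESC and 4 in NPC, where 5.45% and 7.36% of all genes were. The remaining chaperonin subunit on the list with sites, Cct6a, had 110, 45 and 33 sites in ESC WT, ΔZF1 and noXL and 51, 18 and 18 in NPC, with ΔZF1 to WT ratios of -0.29 and -0.87. Hsp90aa1, the stress-inducible HSP90 gene, stood at -0.50 and -1.64. Hspe1, which lies beside Hspd1 and encodes its lid, stood at -0.85 and -0.77 on 31 and 22 WT sites. The chaperones of the endoplasmic reticulum had the lowest ΔZF1 to WT median among the groups with at least 4 genes compared in ESC, -0.49 over 9 genes, and -0.74 over 8 genes in NPC. Among them were Hspa5, the ER HSP70 (-1.21 and -2.55), Pdia3, a disulfide isomerase (-1.30 and -1.09), and Hyou1 (0.12 and -1.18). Their WT to noXL medians were 0.68 and 1.22. Past 1 in that comparison were Calr (2.08 in ESC and 1.37 in NPC), Hsp90b1 (1.24 and 1.43) and Pdia3 (1.15 and 1.50) in both cell types, and Hyou1 (1.33) and Hspa5 (1.12) in NPC. Outside the ER group, ΔZF1 to WT was 1.43 in ESC for Grpel2, 1.18 for Dnajb1 in ESC, and 1.13 and 1.38 in NPC for Dnajb4 and Dnajb12. In the other cell type Dnajb1 stood at -0.73 and Dnajb12 at 0.30. Also past 1 in WT to noXL were Pfdn5 (1.12), Hspe1 (1.49), Dnajc9 (1.95), Bag3 (1.15) and Stub1 (1.62) in ESC. These rest on only 4, 3, 1, 2 and 3 noXL sites, and Stub1 stood at -0.70 in NPC. In NPC they were Hspe1 (1.76, on 2 noXL sites), Hspa13 (1.53, on 3), Hsp90aa1 (1.22) and Fkbp4 (1.48). With the ER genes, 8 of 61 were at or above 1 in ESC and 9 of 46 in NPC. Of all genes 8.12% and 10.5% were. Hsf1 stood at -1.15 in ESC, where 6.6% of all genes were at or below -1. NPC to ESC with WT was past the limit for Dnajb1 (1.22) and Dnajb6 (-1.29).

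By the distance of log2 scaled counts over the 6 lists, the genes most like the summed members among 1088 with at least 100 ESC WT sites were Macf1 (1.01), Atrx (1.07) and Cnot1 (1.19). These are large genes whose site number is near the sum of the 10, so that the distance reflects level as well as pattern. With each gene's mean over the lists subtracted, a measure added after the values were seen, they stood at ranks 286, 376 and 526, and the nearest were Hnrnpk (0.302), Sptbn1 (0.302) and Tcp1 (0.318), which is itself a member of the sum.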

How the data were processed

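iCLIP2 libraries of WT, ΔZF1 and noXL nuclei were aligned to mm10 and deduplicated by molecular identifier with the tools the submitters' notes name (STAR, UMI-tools, bedtools). The authors merged the libraries of a group and deposited 1 PureCLIP list per group, with 1-nt sites and a score per site. No column of single samples was left unused (0). The 10 members and all gene lists were chosen with earlier results of these data known. Sites were placed in GENCODE M21 genes on their strand with Python 3.11.15, numpy 2.4.6 and pandas 2.3.3, and the base was read from GRCm38. Ratios are log2 of counts plus 1, minus log2 of the genic totals, for genes whose counts in the compared lists summed to 20 or more. Intervals come from the 95% Wilson interval of the share of sites in the first list. A site was near another within 5 nt. Coding exon was preferred to UTR, UTR to other exons, exon to intron. The coding windows were added after the values were seen. Named other chaperones were those past 1 or -1 in a comparison that uses a WT list, plus Cct6a, Hsp90aa1 and Hspe1. Ratio and interval code was tested on simulated data. Lists depend on depth and on the caller's threshold, and reads with several matches can be lost from copied sequence.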

Additional observations from a re-analysis of the deposited data

Results flagged for a closer look

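The cell types had opposite directions for 2 genes, with 1 list per group and no test of the difference. Cct3 had a WT to noXL scaled log2 ratio of -0.48 in ESC and 0.41 in NPC, with overlapping intervals. Hspd1 had a ΔZF1 to WT ratio of 0.024 in ESC and -0.50 in NPC, also with overlapping intervals.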

How the results depend on the processing

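No paired analysis was possible because PureCLIP was run on merged libraries, which also means that a single library cannot be dropped. With only sites at or above the median score of all lists, the members' sum was -0.65 for ΔZF1 to WT in ESC and -1.19 in NPC, and 0.97 and 1.64 for WT to noXL. Without scaling to the lists, these 4 values were -1.44, -1.20, 2.10 and 2.25, and NPC to ESC with WT was -0.86. With exonic sites only, ΔZF1 to WT in ESC was -0.74, and with uridine sites only, WT to noXL in NPC was 1.59. With the score minimum, the uridine share with WT was 75.6% (ESC) and 81.5% (NPC) and the exon share 75.5% (ESC) and 82.1% (NPC), and the exon share with ΔZF1 in ESC was 64.2%. With sites near noXL sites removed, the uridine share in ESC WT was 73.5%. With exons of protein-coding transcripts only, the exon share was 52.8%, 40.0% and 34.8% in ESC WT, ΔZF1 and noXL and 59.3%, 34.8% and 38.7% in NPC. ΔZF1 sites near a WT site were 28.7% at 0 nt and 79.2% at 50 nt in ESC and 17.0% and 56.5% in NPC. With a minimum of 50 sites, 0 members were at or below -1 for ΔZF1 to WT in NPC, 3 at or above 1 for WT to noXL in NPC, 0 at or above 1 for ΔZF1 to noXL in NPC and 0 at or below -1 for NPC to ESC without UV, since fewer members were compared. No alternative run reversed a sum whose interval excludes 0. The NPC to ESC sum with WT, whose interval holds 0, changed sign without scaling (-0.86), without Hspa8 and Hspd1 together (-0.02) and without Hspd1 (-0.00043). The other 146 alternative values of sums, shares and counts stayed within the reported interval or 1.5 times the count. Of the single genes' ratios 143 stayed within their intervals, and the other 37 were all without scaling. Chosen after seeing the data, leaving out snoRNA-edge sites gave -0.48, -0.63, 0.64 and 1.11 for the 4 sums, and leaving out Hspa8 and Hspd1 gave -0.53, -0.64, 0.61 and 1.10. Leaving out each member in turn gave -0.52 to -0.41, -0.68 to -0.56, 0.53 to 0.70 and 0.97 to 1.19. The small noXL counts of single genes limit their ratios.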
